A study of Homo sapiens with 118 samples.

Results

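The nuclear-encoded genes of respiratory complexes I, II and III were followed in HepaRG cells exposed to 8 histone deacetylase inhibitors. The genes were taken by name alone: every row of the count table whose symbol begins with NDUFA, NDUFB, NDUFC, NDUFS, NDUFV or UQCR, or is one of SDHA to SDHD, was included. This gave 69 probes for 57 gene symbols, of 22068 probes for 19470 symbols in the table. By role, 10 probes belonged to core subunits of complex I, 32 to its accessory subunits, 9 to assembly factors named NDUFAF, 2 to NDUFA4 and its paralogue NDUFA4L2, 4 to complex II and 11 to complex III. The remaining probe was for the readthrough transcript NDUFC2-KCTD14. SDHD, NDUFA12, NDUFB6 and NDUFS5 had no probe among the rows used. CYC1, the cytochrome c1 subunit of complex III, falls outside these names and was not included.

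HepaRG is an established human liver cell line that differentiates into cultures of hepatocyte-like and biliary-like cells, and it was used here in the differentiated state. Each culture received 1 chemical for 72 hours, renewed daily. There were 5 concentrations of each, the lowest called C1 and the highest C5. Dose labels ran from 0.0417 to 0.86 µM for apicidin, 0.177 to 3.9 µM for mocetinostat, 0.00147 to 0.084 µM for panobinostat, 4.94 to 94.5 µM for scriptaid, 1.14 to 44 µM for tacedinaline, 0.0188 to 1.52 µM for trichostatin A and 0.405 to 23.5 µM for vorinostat. The labels of valproic acid ran from 100.478 to 3038, and the sources used here do not settle their unit. Panobinostat, scriptaid, trichostatin A and vorinostat are hydroxamic acids, mocetinostat and tacedinaline are benzamides, apicidin is a cyclic tetrapeptide and valproic acid is a short branched fatty acid. No 2 chemicals had matched concentrations, so their values are given side by side and no difference between chemicals was tested. Replicates 1, 2 and 3 were 3 batches of HepaRG cells, all of the 1 cell line. Of the 40 groups, 38 held 3 libraries, and panobinostat C3 and trichostatin A C4 held 2, without batch 3. Solvent controls were not analysed here. Every comparison was therefore made with C1 of the same chemical, which itself contained inhibitor, and changes present at all 5 concentrations are missed.

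Complex I takes electrons from NADH, passes them along a flavin and a chain of iron-sulfur clusters to ubiquinone, and pumps protons out of the mitochondrial matrix. Its core subunits carry out this chemistry, and the core subunits of its membrane arm are encoded by mitochondrial DNA. The accessory subunits surround the core and are needed for its assembly and stability. Complex II (succinate dehydrogenase) links the citric acid cycle to ubiquinone, and complex III passes electrons from ubiquinol to cytochrome c. Hepatocytes are rich in mitochondria and rely on this chain for ATP. The genes lie on many chromosomes, and their promoters often share sites for the factors NRF1 and YY1 and for factors of the ETS family.

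The promoters of 4 genes are shown because these genes carry the main changes at C5. NDUFA7 was called higher and NDUFA6 lower in the most chemicals, NDUFA2 had the greatest called rise, and UQCRFS1 was the one complex III gene called lower. Each window runs from 250 bases before to 50 after the RefSeq start in GRCh38.p14, 5′ to 3′ along the gene. Capitals mark exact matches, on either strand, to the NRF1 motif GCGCANGCG, the ETS motif CCGGAAG, the YY1 motif AAGATGGC or the SP1 motif GGGGCGGGG. The windows are chr19:8321326-8321625 on the minus strand for NDUFA7, chr22:42090723-42091022 on the minus strand for NDUFA6, chr5:140647581-140647880 on the minus strand for NDUFA2 and chr19:29213102-29213401 on the minus strand for UQCRFS1.
NDUFA7: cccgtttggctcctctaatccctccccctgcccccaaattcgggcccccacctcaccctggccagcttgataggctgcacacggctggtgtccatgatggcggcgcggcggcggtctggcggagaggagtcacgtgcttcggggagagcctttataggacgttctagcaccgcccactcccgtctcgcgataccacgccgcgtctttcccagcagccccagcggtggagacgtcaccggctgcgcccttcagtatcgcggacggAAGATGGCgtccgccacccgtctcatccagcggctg
NDUFA6: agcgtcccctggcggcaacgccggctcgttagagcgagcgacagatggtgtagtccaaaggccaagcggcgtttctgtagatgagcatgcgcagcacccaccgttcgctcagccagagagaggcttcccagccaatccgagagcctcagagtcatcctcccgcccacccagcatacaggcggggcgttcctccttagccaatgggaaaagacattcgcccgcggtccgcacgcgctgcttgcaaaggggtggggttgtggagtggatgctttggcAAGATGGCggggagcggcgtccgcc
NDUFA2: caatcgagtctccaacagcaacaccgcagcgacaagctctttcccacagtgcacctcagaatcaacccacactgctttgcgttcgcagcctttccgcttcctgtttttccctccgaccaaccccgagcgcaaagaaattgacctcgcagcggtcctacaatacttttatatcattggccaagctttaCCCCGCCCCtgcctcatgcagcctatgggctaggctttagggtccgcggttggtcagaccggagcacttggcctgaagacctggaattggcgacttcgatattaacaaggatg
UQCRFS1: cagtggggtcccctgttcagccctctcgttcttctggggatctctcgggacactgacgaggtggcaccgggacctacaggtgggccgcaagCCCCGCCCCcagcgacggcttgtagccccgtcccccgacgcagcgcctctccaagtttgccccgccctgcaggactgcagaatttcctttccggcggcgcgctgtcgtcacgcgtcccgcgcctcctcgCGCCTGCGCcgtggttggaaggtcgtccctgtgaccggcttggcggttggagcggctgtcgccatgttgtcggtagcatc

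NDUFA7 and NDUFA6, which moved in opposite directions, each held 1 YY1 match in the last 50 bases of the window. NDUFA2 held 1 SP1 match, and UQCRFS1 held 1 NRF1 and 1 SP1 match. RefSeq windows were found for 48 of the 57 genes. NRF1 matches were in 14 of these 48 windows (29.2%, against 7.52% of 35116 windows of all genes) and YY1 matches in 8 (16.7% against 2.89%). ETS matches were in 10 (20.8% against 10.3%) and SP1 matches in 7 (14.6% against 15.7%). Among the 23 windows of genes with no call at C5, 9 held an NRF1 match, against 2 of the 14 windows of genes called only higher and 2 of the 10 of genes called only lower. YY1 matches were in 5, 2 and 1 of these windows. The members had 1 window per gene. The 35116 windows were taken as given, not reduced to 1 per gene or to protein-coding genes, so the sets are unlike. These matches are descriptions of sequence, with no test, and no binding was measured.

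Total counts per library ran from 1061359 to 5250260, with a median of 3702007. The hepatocyte identity of the cells was checked at C1, where all 15 probes of 14 hepatocyte markers (albumin, transthyretin and the like) had a median of at least 10 counts. At C5 between 12 and 15 of these 15 probes were called lower in 7 chemicals, with medians of their log2 changes from -1.19 in panobinostat to -4.54 in tacedinaline. In trichostatin A none of the 15 was called and the median was 0.02. Of 10 biliary and progenitor probes 4 had a median of at least 10 counts at C1, and EPCAM had no count there. Their summed share of counts lay between 0.00681% and 0.0107% in the C1 groups and between 0.0103% and 0.0207% in the C5 groups. Of 11 fibroblast and stromal probes 8 reached 10 counts at C1, and their summed share was 0.0185% to 0.0276% at C1 and 0.0108% to 0.0235% at C5. Over the 8 chemicals the biliary list gave 11 higher and 0 lower calls in 33 tests at C5. The fibroblast list gave 8 higher and 27 lower in 64, against 11.6% and 13.4% of the tests of all probes. The sums hide this, as in vorinostat, where COL1A1 measured 1.67 and COL3A1_28516 -3.23. The part of this shift in the results that follow was not tested, and in such bulk lysates fewer cells of a type and less RNA per cell cannot be told apart. Some libraries stood apart from their own group. In 7 libraries the closest library of the group had a Spearman correlation of 0.81 to 0.917 over 10478 probes, while all other libraries had one of at least 0.935. They were apicidin C4 batch 1, mocetinostat C2 batch 3, mocetinostat C3 batch 1, panobinostat C2 batch 2, scriptaid C4 batch 3, trichostatin A C1 batch 3 and valproic acid C4 batch 3. In mocetinostat C2 it was batches 1 and 2 that departed from the neighbouring concentrations (median correlations of 0.774 and 0.855, against 0.932 for batch 3). Counts of members called were also taken without such libraries, and for mocetinostat C2 it was batches 1 and 2, not batch 3, that were left out. The marker values above are with all libraries.

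At C5 the complex I to III genes were called less often than the average probe when higher and lower calls were added up, and they moved in both directions. In vorinostat and panobinostat the higher calls prevailed, in tacedinaline and mocetinostat the lower ones. This order was not stable in 3 of them. With libraries scaled by total counts alone, tacedinaline had 9 higher and 6 lower (41% of all probes called). Mocetinostat then had 4 higher and 3 lower (32.1%). In panobinostat the higher calls fell to as few as 1 when a batch was left out. A probe was called when its Benjamini-Hochberg adjusted p in edgeR was under 0.05 and its fold change at least 1.5. Between 57 and 63 of the 69 probes had enough counts to be tested in a chemical, and 6 were tested in none. In vorinostat 16 of 57 tested probes were called higher (28.1%, against 22.7% of all probes tested) and 6 lower (10.5% against 24.9%), and 47.5% of all probes were called in either direction. In panobinostat 5 of 63 were called higher (7.94% against 6.77%) and 0 lower (9.46% of all probes), with 16.2% of all probes called in total. In every other chemical the members' share was below that of all probes in each direction, except where both were 0. Tacedinaline had 5 of 62 higher (18.7% of all probes) and 10 lower (20.1%), with 38.8% of all called in total. Mocetinostat had 2 of 62 higher (14.8%) and 9 lower (15.7%), with 30.5% in total. Scriptaid had 4 of 63 higher (12.8%) and 5 lower (17%), with 29.8% in total, and apicidin 4 of 62 higher (13.8%) and 4 lower (15%), with 28.8% in total.

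In valproic acid none of 62 was called by edgeR, with 4.84% of all probes called higher, 6.22% lower and 11.1% in total. There 5 members had an unadjusted p under 0.05, and DESeq2 called 1 higher (its share of all probes is not given). In trichostatin A none of 63 was called by edgeR or DESeq2, with 0.0154% of all probes called, all of them lower, and 0% higher. There 7 members had an unadjusted p under 0.05. The share of members called in either direction was below that of all probes in each of the 8 chemicals, as was the median absolute log2 change.

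**Figure D1:**
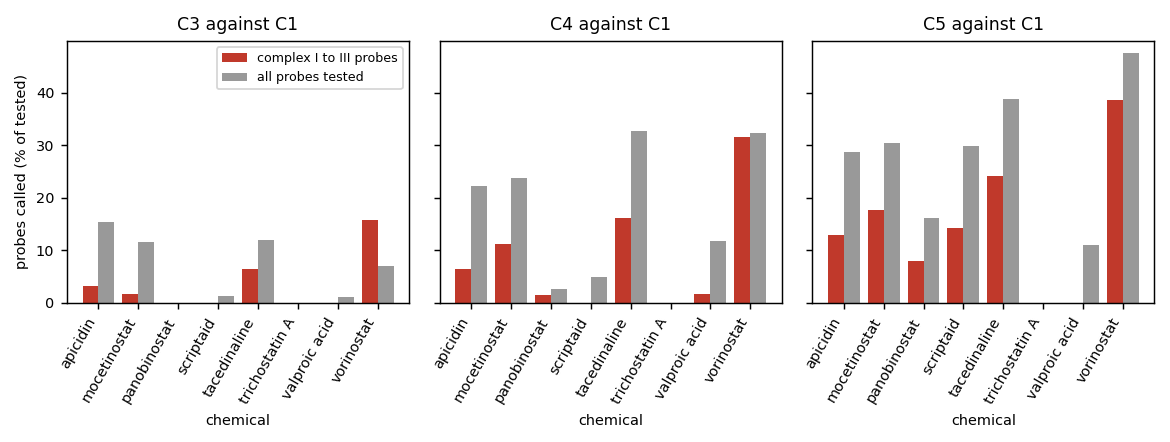
Percentage of tested probes called against C1 (y axis, %) in each chemical (x axis) at C3, C4 and C5, for the complex I to III probes (red) and for all probes tested (grey). At C5 the red bar is the lower one wherever any probe was visibly called, for example 24.2% against 38.8% in tacedinaline, and at C3 in vorinostat it is the higher one (15.8% against 7.06%).

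Over the 8 chemicals there were 494 tests of a member at C5, of which 36 gave a higher and 34 a lower call (14.2% together, against 25% of the tests of all probes). In 69 of the 70 calls all 3 batches moved in the direction of the call. The calls were made on these same libraries, which makes such agreement likely, so it adds no support. The same holds for each lack of overlap given below for a called probe. At C5 no probe was called higher in one chemical and lower in another. Of the 63 probes tested, 20 were called higher in at least 1 chemical and lower in none, 13 the reverse, and 30 were never called. The medians of the members' log2 changes were 0.34 in vorinostat, 0.28 in scriptaid and 0.25 in panobinostat, while the medians of all probes tested there lay between -0.00 and 0.01. In the other 5 chemicals the members' median lay between -0.09 and 0.12. The split and the sign of the median depended on scaling in mocetinostat and tacedinaline. When libraries were scaled by total counts alone, which raised the median of all probes there by 0.19, mocetinostat had 4 members higher and 3 lower (32.1% of all probes called), and tacedinaline 9 higher and 6 lower (41%). The members' medians then went from -0.09 to 0.11 in mocetinostat, from -0.03 to 0.16 in tacedinaline and from -0.05 to 0.04 in apicidin. In valproic acid, where that scaling raised the median of all probes by 0.14, 4 members were called higher and 0 lower (12.5%). The counts also moved when 1 batch was left out. So did those of all probes. Without batch 2 mocetinostat had 1 member higher and 1 lower (13.4% of all probes called). Scriptaid had 2 higher and 1 lower both without batch 1 (14.5%) and without batch 2 (12.3%). Panobinostat without batch 3 had 1 higher (7.84%). Apicidin had 1 higher and 3 lower both without batch 2 (20.3%) and without batch 3 (17.7%). Vorinostat had 13 to 18 higher and 5 to 6 lower, and tacedinaline 4 to 6 higher and 7 to 8 lower. For vorinostat and tacedinaline the share of all probes in these fits is not given, so their ranges cannot be set against it. Without C2 batches 1 and 2 and C3 batch 1, mocetinostat had 4 higher and 15 lower, with 37.4% of all probes called. Scriptaid without C4 batch 3 had 8 higher and 5 lower, with 41.2% of all called.

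**Figure D2:**
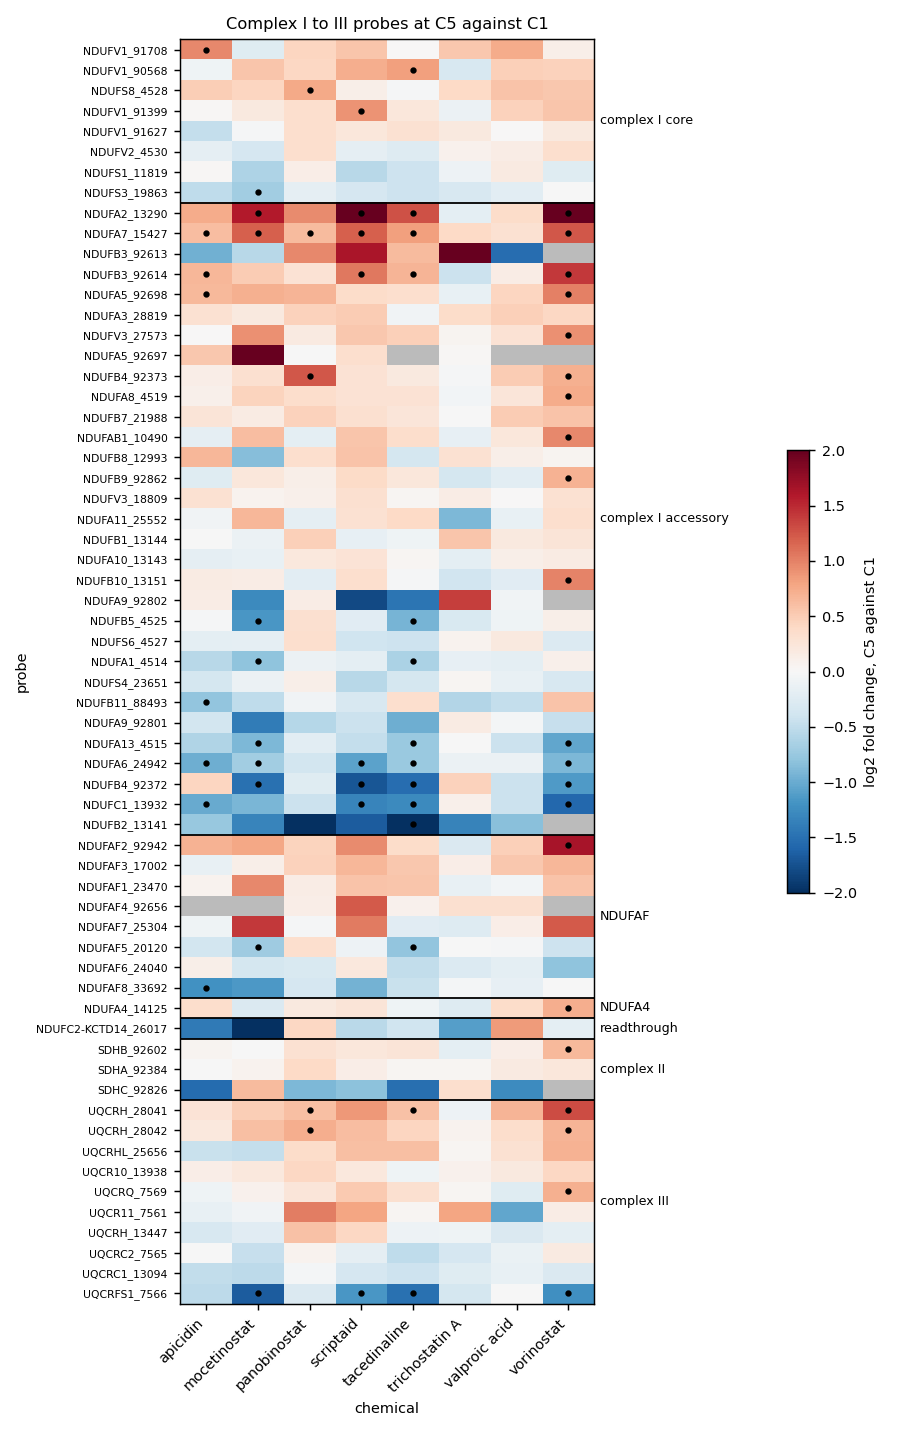
Log2 fold change at C5 against C1 (colour, from -2 in blue to 2 in red; values beyond are shown at the end colours) of 62 probes tested (rows, grouped by role) in the 8 chemicals (columns). Black points mark 36 higher and 30 lower calls, and grey cells were not tested; rows carry points of 1 direction only.

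Among the accessory subunits of complex I, 23 of 242 tests were called higher and 22 lower (18.6% together, against 25% of the tests of all probes over the 8 chemicals). NDUFA7, a subunit of the arm that reaches into the matrix, was called higher in 6 chemicals, the most of any member. The gene spans chr19:8308595-8321375 in GRCh38.p14. In vorinostat it measured 132, 114 and 135 CPM (counts scaled to a common library size) in batches 1 to 3 at C1 and 276, 255 and 368 CPM at C5, a log2 change of 1.24 ± 0.16 (SE, n = 3 per group, adjusted p = 1.12e-07). In scriptaid it went from 146, 150 and 140 CPM to 317, 329 and 355 CPM (1.20 ± 0.22, adjusted p = 0.000486). The C1 and C5 libraries of NDUFA7 did not overlap in any of the 6 chemicals. In mocetinostat, tacedinaline, panobinostat and apicidin its log2 changes were 1.19, 0.83, 0.64 and 0.62. The call in panobinostat was lost in each of the 3 fits that left out a batch, and that in apicidin without batch 3. In trichostatin A and valproic acid the log2 changes were 0.40 ± 0.19 and 0.30 ± 0.17, and neither was called.

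NDUFA2, a subunit of the NADH-oxidising tip, had the greatest called rise of the members. At C1 in vorinostat it measured 22.4, 18.9 and 23.8 CPM, and at C5 170, 138 and 158 CPM. The log2 change was 2.84 ± 0.23 (adjusted p = 1.87e-12), a 7.16-fold difference with no overlap of the groups. In scriptaid NDUFA2 went from 35.2, 44.2 and 22.6 CPM to 163, 179 and 170 CPM (2.32 ± 0.47, adjusted p = 0.00104). It was also called higher in mocetinostat (1.59 ± 0.48) and tacedinaline (1.27 ± 0.24), and all 4 of these rises were without overlap. The call in mocetinostat was lost without batch 2 and without batch 3. In apicidin and panobinostat its log2 changes of 0.74 and 0.94 were not called (adjusted p = 0.18 and 0.069), and in trichostatin A it was -0.19.

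NDUFB3, a subunit of the membrane arm, has 2 probes. The probe NDUFB3_92614 rose in 4 chemicals, from 516, 493 and 561 CPM to 1349, 1442 and 1399 CPM in vorinostat (log2 change 1.42 ± 0.12, adjusted p = 1.09e-11) and from 667, 712 and 558 CPM to 1331, 1380 and 1302 CPM in scriptaid (1.05 ± 0.25). Its rises in tacedinaline and apicidin were 0.67 and 0.66. The call in scriptaid was lost without batch 1 and without batch 2, and that in apicidin without batch 2. The second probe had a median of 6 counts per library, and none of its 7 tests gave a call. NDUFA5, in the part of the matrix arm next to the ubiquinone site, was called higher in vorinostat (1.01 ± 0.15) and apicidin (0.65 ± 0.21) by one probe, the latter call being lost without batch 2 and without batch 3. Its other probe also had a median of 6 counts, and none of its 5 tests gave a call. In vorinostat the accessory subunits NDUFAB1 (the mitochondrial acyl carrier protein), NDUFB10, NDUFV3, NDUFA8 and NDUFB9 were called higher too, with log2 changes of 0.97, 0.99, 0.91, 0.75 and 0.69, and in no other chemical. That restriction to vorinostat was not tested.

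NDUFA6, a small subunit of the matrix arm that binds the acyl carrier protein, was called lower in 5 chemicals, the most among the members that fell. The gene spans chr22:42085526-42090772 in GRCh38.p14. In apicidin it measured 209, 263 and 196 CPM at C1 and 114, 90.5 and 135 CPM at C5 (log2 change -0.97 ± 0.17, adjusted p = 0.00018). In vorinostat it went from 169, 199 and 193 CPM to 120, 72.2 and 112 CPM (-0.90 ± 0.18, adjusted p = 6.4e-05). The groups did not overlap in any of the 5. Its changes in scriptaid, tacedinaline and mocetinostat were -1.07, -0.74 and -0.69. The calls in mocetinostat and scriptaid were lost without batch 1 and without batch 2. Under scaling by total counts those in tacedinaline and mocetinostat were -0.55 and -0.51 and were no longer called.

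NDUFC1, a small subunit of the membrane arm, was called lower in 4 chemicals. At C1 in vorinostat it measured 307, 312 and 365 CPM and at C5 107, 107 and 119 CPM (log2 change -1.56 ± 0.15, adjusted p = 2.62e-10). In apicidin it went from 374, 359 and 331 CPM to 168, 158 and 202 CPM (-1.01 ± 0.22, adjusted p = 0.00167). The falls in scriptaid and tacedinaline were -1.32 and -1.27, and no C5 library of these 4 chemicals reached the level of a C1 library. The call in scriptaid was lost without batch 1 and without batch 2. In mocetinostat the log2 change of NDUFC1 was -0.91 and was not called (adjusted p = 0.23). NDUFA13 was called lower in 3 chemicals (-1.03 to -0.74), NDUFB5 and NDUFA1 in mocetinostat and tacedinaline (-1.16 to -0.64), and NDUFB11 in apicidin (-0.78). All 4 belong to the membrane arm. Under scaling by total counts the lower calls of members went from 9 to 3 in mocetinostat (32.1% of all probes called in either direction). In tacedinaline they went from 10 to 6 (41%). Whether the NDUFA13 and NDUFA1 calls were among those kept is not given here. The NDUFB5 call in mocetinostat was lost without batch 2 and without batch 3, and that in tacedinaline without batch 1. NDUFB2 had few counts. In tacedinaline it measured 6.21, 3.08 and 3.57 CPM at C1 and 0, 0 and 1.35 CPM at C5, where every library held at most 3 counts, so it was at least 3.13-fold lower (adjusted p = 0.0277), taking 3 counts in each C5 library as the floor. This call was lost without batch 1, and without batch 2 the probe was not tested.

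**Figure D3:**
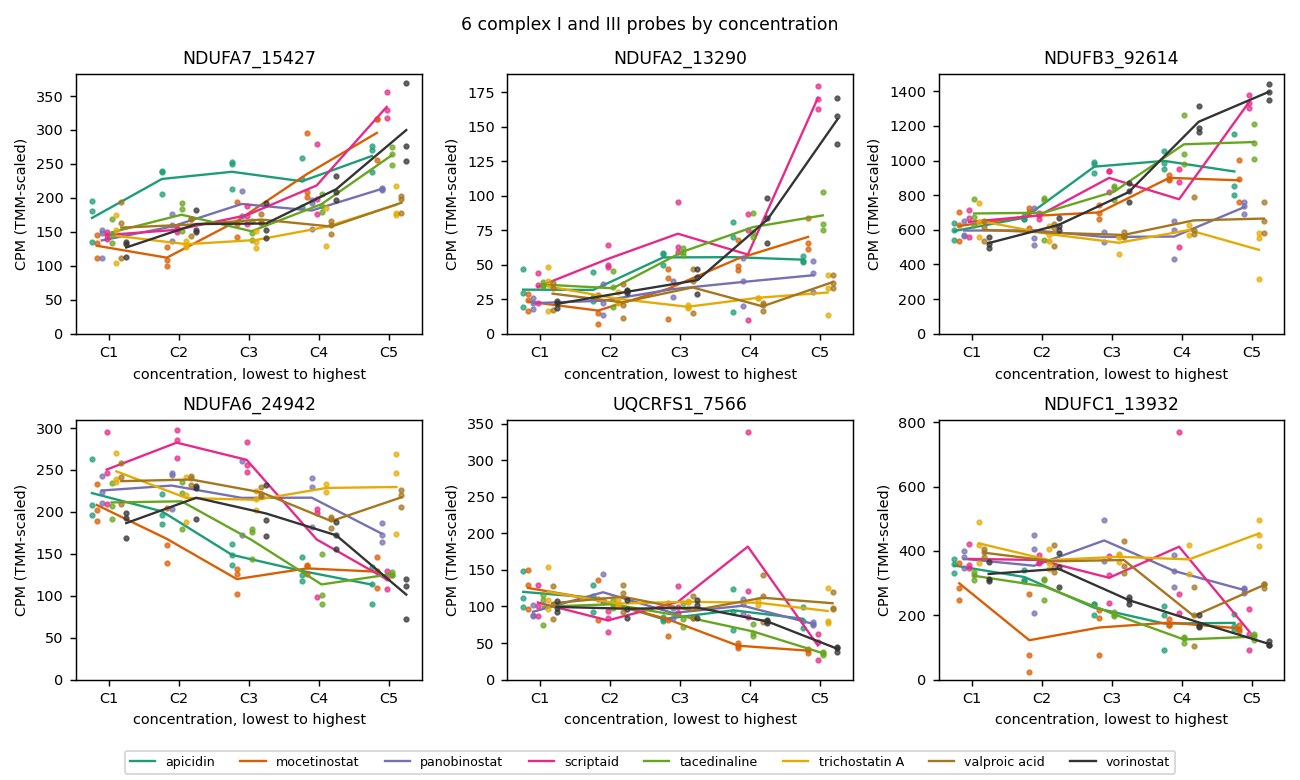
CPM (y axis, linear, TMM-scaled) of 6 complex I and III probes at C1 to C5 (x axis) in the 8 chemicals (colours); points are single libraries and lines join group means. At C5 the means of NDUFA7, NDUFA2 and NDUFB3_92614 are highest in vorinostat or scriptaid, and NDUFA6, UQCRFS1 and NDUFC1 are lower than at C1 in several chemicals; the single high points of UQCRFS1 and NDUFC1 at C4 are scriptaid batch 3, which stood apart.

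The 2 probes of NDUFB4, another subunit of the membrane arm, disagreed. NDUFB4_92373 was called higher in panobinostat, from 56, 67.5 and 51.1 CPM to 137, 165 and 110 CPM (log2 change 1.23 ± 0.22, adjusted p = 0.000464), and in vorinostat, from 57.4, 68.8 and 68.5 CPM to 108, 107 and 104 CPM (0.71 ± 0.21, adjusted p = 0.00458). NDUFB4_92372 was called lower in vorinostat, from 32.7, 42.6 and 40.5 CPM to 18.2, 19.9 and 15 CPM (-1.13 ± 0.29, adjusted p = 0.00178). Both calls in vorinostat were made on the same libraries, without overlap. The second probe also fell in scriptaid (-1.72 ± 0.33), tacedinaline (-1.52 ± 0.34) and mocetinostat (-1.49 ± 0.40), where the first measured 0.29, 0.20 and 0.31 and was not called. The fall in mocetinostat was not called without batch 2 or without batch 3, nor the rise in vorinostat without batch 1. Where in the transcript each probe lies is not given in the sources used here.

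**Figure D4:**
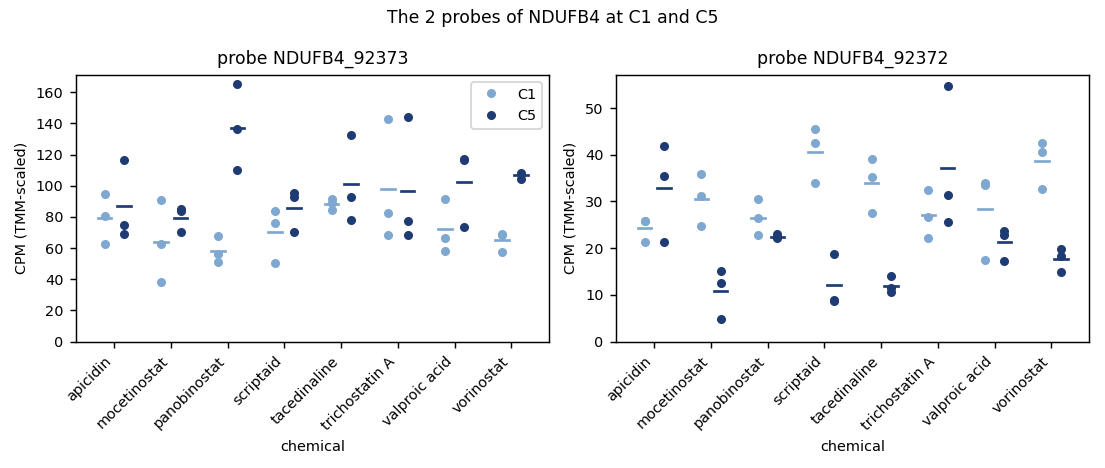
CPM (y axes, linear, TMM-scaled) of the probes NDUFB4_92373 (left) and NDUFB4_92372 (right) in each library at C1 (light) and C5 (dark) of the 8 chemicals (x axis); bars are group means. In vorinostat the left probe goes from 64.9 to 107 CPM and the right probe from 38.6 to 17.7 CPM on average, in the same libraries.

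The core subunits of complex I gave 4 higher and 5 lower calls in 72 tests (12.5%, against 25% of the tests of all probes). NDUFS3, a core subunit of the matrix arm, was called lower in mocetinostat (-0.70 ± 0.25, adjusted p = 0.0458). Whether this call was kept under scaling by total counts is not given here. NDUFS8, which holds iron-sulfur clusters, was called higher in panobinostat, from 248, 203 and 244 CPM to 429, 368 and 377 CPM (0.75 ± 0.21, adjusted p = 0.0166), a call lost without batch 1 and without batch 3. NDUFV1, which binds NADH and the flavin, has 4 probes. A different one was called higher in each of tacedinaline (0.82), scriptaid (0.90) and apicidin (0.96), and the fourth, NDUFV1_91627, in none. The apicidin call, on 8.15, 4.45 and 8.71 CPM against 13, 15.1 and 13.4 CPM, was lost in all 3 fits without a batch, and that in scriptaid without batch 1 and without batch 2. NDUFS1 and NDUFV2 were called in no chemical, with log2 changes between -0.62 and 0.34, and NDUFS7 had too few counts to be tested.

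Among the assembly factors, which bind complex I while it is built and then leave it, 1 of 61 tests was called higher and 3 lower (6.56%, against 25% for all probes). NDUFAF2 went from 20.7, 20.2 and 26 CPM to 62.9, 75.3 and 71.1 CPM in vorinostat (log2 change 1.64 ± 0.24, adjusted p = 5.34e-07), with every C5 library above every C1 library. Its changes in the other 7 chemicals ran from -0.29 to 0.95 and were not called. NDUFAF5, which modifies the core subunit NDUFS7, was called lower in mocetinostat and tacedinaline (-0.72 and -0.79), with overlapping groups in the latter. Whether these NDUFAF5 calls were kept under scaling by total counts is not given here. NDUFAF8, its partner, was called lower by 1 probe in apicidin, from 13.7, 21.3 and 20.2 CPM to 7.73, 10.2 and 5.88 CPM (-1.21 ± 0.36, adjusted p = 0.0146), a call lost in 2 of the 3 fits without a batch, and its second probe had too few counts to be tested. NDUFA4, once counted with complex I and now assigned to complex IV, measured 26.4, 11.2 and 28.6 CPM at C1 and 38.3, 41.9 and 26.7 CPM at C5 of vorinostat. The groups overlapped and batch 3 moved the other way, and the log2 change of 0.72 ± 0.31 passed narrowly (adjusted p = 0.0473). DESeq2 and the fit with the batch as a block gave adjusted p-values of 0.058 and 0.0547, and without batch 2 the log2 change was 0.22. In the other 7 chemicals NDUFA4 lay between -0.29 and 0.37 and was not called. NDUFA4L2, its paralogue, had no count in most libraries and was not tested.

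Complex II gave 1 call in 23 tests (4.35%, against 25% for all probes). SDHB, which carries its iron-sulfur clusters, was called higher in vorinostat, from 176, 130 and 189 CPM to 284, 295 and 198 CPM (log2 change 0.65 ± 0.17, adjusted p = 0.00164), with batch 3 only just above the C1 range and the call lost without batch 2. In the other 7 chemicals its log2 changes ran from -0.19 to 0.30 with SEs of 0.16 to 0.35. SDHA, the flavoprotein that oxidises succinate, lay close to its C1 level. One probe measured 217, 237 and 235 CPM at C1 and 220, 253 and 214 CPM at C5 in apicidin (-0.01 ± 0.14), and 288, 281 and 246 CPM against 273, 290 and 270 CPM in tacedinaline (0.03 ± 0.13). Its greatest change at C5 was 0.39 ± 0.16 in panobinostat (adjusted p = 0.107), and no chemical gave a call at C5. The other SDHA probe was at or near 0 counts in every group. SDHC, a membrane anchor, had a median of 6 counts per library, and its log2 changes of -1.55 to 0.64 had SEs of 0.81 to 1.28, so changes of that size were not detectable at this depth.

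In complex III 6 of 80 tests were called higher and 4 lower (12.5%, against 25% for all probes). All 4 lower calls were of UQCRFS1, the Rieske iron-sulfur protein that takes the electron from ubiquinol. The gene spans chr19:29205320-29213151 in GRCh38.p14. In mocetinostat it measured 95.9, 130 and 150 CPM at C1 and 36.2, 41 and 41.5 CPM at C5 (log2 change -1.66 ± 0.26, adjusted p = 0.000172). In tacedinaline it went from 74.5, 115 and 109 CPM to 36.5, 38 and 33.8 CPM (-1.48 ± 0.21, adjusted p = 1.26e-07), and in vorinostat from 108, 91.9 and 98.4 CPM to 38.3, 42.9 and 45 CPM (-1.23 ± 0.19, adjusted p = 2.37e-06). The fall in scriptaid was -1.17 ± 0.41 (adjusted p = 0.0392), and none of the 4 overlapped. The call in scriptaid was lost without batch 1 and without batch 2 (-1.58 and -1.28). In valproic acid it was -0.00, in trichostatin A -0.36 and in panobinostat -0.28, and none was called. The core proteins UQCRC1 and UQCRC2 were called in no chemical (-0.53 to 0.18).

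The hinge protein UQCRH, which helps cytochrome c to dock, has 3 probes. UQCRH_28041 was called higher in vorinostat, from 89, 62.6 and 86.5 CPM to 204, 205 and 177 CPM (log2 change 1.31 ± 0.18, adjusted p = 1.78e-07), in panobinostat (0.61 ± 0.20) and in tacedinaline (0.59 ± 0.19). The call in panobinostat was lost in all 3 fits that left out a batch (0.42 to 0.80). That in tacedinaline lay close to the minimum fold, was below it in DESeq2 (0.57) and was lost without batch 2. UQCRH_28042 was called higher in panobinostat (0.73 ± 0.17), though not without batch 3, and in vorinostat (0.67 ± 0.15). The third probe had a median of 16 counts and was called in none. UQCRH has a near-identical copy, UQCRHL, whose own probe was called in no chemical at C5, and how reads divide between the copies is uncertain. UQCRQ, a small subunit of complex III, was called higher in vorinostat (0.71 ± 0.19, adjusted p = 0.00187). The readthrough NDUFC2-KCTD14 overlaps NDUFC2, had a median of 17 counts and was called in no chemical at C5.

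Lower concentrations were compared with the same C1 libraries, so these contrasts are not independent of that at C5. At C2 no member was called in any chemical by edgeR or DESeq2, while 0.385% of all probes were called in tacedinaline, 0.191% in mocetinostat, 0.102% in apicidin, 0.0172% in vorinostat and 0% in the other 4 chemicals, and 0 to 6 members had an unadjusted p under 0.05. Mocetinostat C2 is the exception under 1 alternative: without batch 3, which leaves the 2 libraries that departed from their neighbours, 15 members were called lower and 1 higher, with 24.4% of all probes called. At C3 vorinostat had 9 of 57 members called, all higher (15.8%, against 3.18% of all probes), with 3.88% of all probes lower and 7.06% in total. They were NDUFA4, NDUFA2, NDUFB3, NDUFB5, NDUFB9, NDUFB10, SDHB, UQCRH and UQCRQ, with log2 changes of 0.64 to 1.29. NDUFB5, higher here, was one of the genes called lower at C5 in mocetinostat and tacedinaline. Without batch 2 no member was called at C3 of vorinostat (1.52% of all probes), without batch 1 there were 2 calls (2.95%), and without batch 3 there were 13 (9.47%). Tacedinaline had 4 of 62 called at C3 (11.9% of all probes), apicidin 2 (15.3%) and mocetinostat 1 (11.6%). Neither edgeR nor DESeq2 called a member in panobinostat (0.00763% of all probes called), scriptaid (1.34%), valproic acid (1.13%) or trichostatin A (0%), where 4, 5, 2 and 3 members had an unadjusted p under 0.05. Without the libraries that stood apart, the counts at C3 were 7 in apicidin (19.2% of all probes), 8 in mocetinostat (17.5%) and 4 in scriptaid (5.86%).

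At C4 vorinostat had 17 of 57 members higher (29.8%, against 15.6% of all probes) and 1 lower (16.7% of all probes), with 32.3% of all probes called in total, and the members' median log2 change of 0.50 was above its 0.34 at C5. SDHA was among them (0.61), and NDUFA4 (1.41) and UQCRH_28041 (1.54) stood higher than at C5. Tacedinaline had 10 of 62 called (32.8% of all probes), mocetinostat 7 (23.7%) and apicidin 4 (22.3%). Panobinostat had 1 call, NDUFB4_92373 (2.56% of all called), and valproic acid 1, NDUFC1 (11.9%). Scriptaid had 0 by edgeR (4.87% of all probes by edgeR) and 3 by DESeq2. Trichostatin A had 0 by both (0% of all probes by edgeR). In scriptaid and trichostatin A, 8 and 1 members had an unadjusted p under 0.05. Mocetinostat had 1 call without batch 1 (15.4% of all probes), 1 without batch 2 (8.56%) and 2 without batch 3 (15.8%). Without the libraries that stood apart there were 10 calls in apicidin (23.5% of all probes), 13 in mocetinostat (31.4%) and 4 in scriptaid (9.45%) at C4. NDUFA2 in vorinostat averaged 21.7 ± 2.49, 30.4 ± 1.15, 38.8 ± 9.06, 82.7 ± 16.5 and 155 ± 16.6 CPM (SD, n = 3) from C1 to C5, while UQCRFS1 there averaged 99.4, 97, 98.4 and 79.5 CPM from C1 to C4 and 42.1 CPM at C5.

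The members together held between 0.501% and 1.09% of a library's counts. In vorinostat their share was 0.696% ± 0.0344 (SD, n = 3) at C1, 1.06% at C4 and 0.982% ± 0.0257 at C5, and in panobinostat it was 0.759% ± 0.0187 at C1 and 0.995% ± 0.0218 at C5. Every C5 library lay above every C1 library in 7 chemicals, with ratios of the means from 1.09 in apicidin to 1.41 in vorinostat. In trichostatin A the shares of 0.848% and 0.858% overlapped. Shares of raw counts sum to a whole, and the 15 hepatocyte probes moved the other way in the same libraries, from 5.54% to 0.648% of counts in vorinostat and from 6.06% to 2.99% in panobinostat. The part of that fall in the rise of the members' share was not tested.

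**Figure D5:**
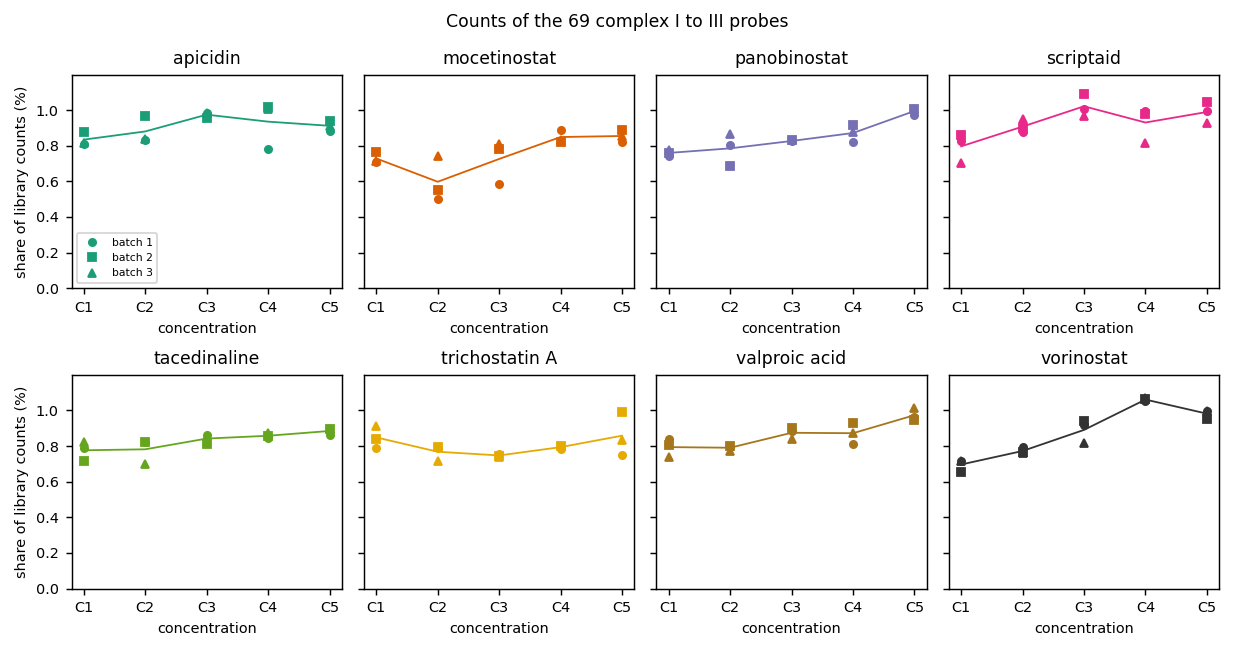
Share of each library's raw counts held by the 69 complex I to III probes (y axis, %) at C1 to C5 (x axis) in each chemical; symbols are the 3 batches and lines join group means. The C5 points lie above the C1 points in 7 chemicals, with the widest gap in vorinostat (0.696% to 0.982%), and the low points of mocetinostat are C2 batches 1 and 2 and C3 batch 1, the libraries left out of the alternative fit.

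The genes that work with complexes I to III were also called in both directions at C5. Over the 8 chemicals 11.6% of the tests of all probes were called higher and 13.4% lower. Of 118 tests of electron carriers between the complexes (cytochrome c, coenzyme Q synthesis and electron transfer flavoproteins), 6 were called higher (5.08%) and 17 lower (14.4%, near the share of all probes). That list also held CYC1, the cytochrome c1 subunit of complex III, which was called in no chemical. Complex IV subunits gave 10 higher (16.9%) and 2 lower calls (3.39%) in 59 tests, and citric acid cycle enzymes 13 (14.6%) and 4 (4.49%) in 89. ATP synthase subunits gave 13 (7.74%) and 7 (4.17%) in 168, regulators of respiratory genes 7 (7.87%) and 6 (6.74%) in 89, and other assembly factors of complexes I to III 5 and 5 (3.70% each) in 135. The medians of these lists in vorinostat were -0.68 for the electron carriers, 0.54 for complex IV, 0.39 for ATP synthase and 0.48 for the citric acid cycle. They were 0.31 for the regulators and -0.01 for the other assembly factors, against -0.00 for all probes. The medians of these lists in the other chemicals are not given here.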

How the data were processed

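Gene expression was measured by TempO-Seq, in which pairs of probes joined on RNA in cell lysates are sequenced, so each value belongs to a probe. The authors deposited whole-number counts per probe, not normalised. The submitters' processing notes list bcl2fastq 2.20.422, fastp 0.23.2, STAR 2.7.10b and DESeq2 1.38.0, and the genome build is not given in the sources used here. Groups came from the labels. Of 22069 rows, 1 without a value in some libraries was dropped. Probes of 1 gene were kept apart. Within each chemical, edgeR 4.0.16 (R 4.3.3) fitted its quasi-likelihood model to all 5 concentrations with TMM scaling and its default filter on low counts, and Benjamini-Hochberg adjustment ran over all probes tested. CPM values are scaled by TMM and fold changes come from the fit. Shares of all probes called are from edgeR, also where a DESeq2 result on members stands beside them. The model was also run on simulated counts in which few probes changed. That run does not bear on the choice of scaling, because many more probes were called in these data. Members named by rule were, per chemical at C5, the 3 greatest called changes in each direction shared by all batches, members called one way in at least 5 chemicals or in opposite directions, and all of complex II, NDUFA4 and NDUFA4L2. Other members, such as NDUFS3, NDUFA8 and NDUFA13, fall outside this rule and were picked with their values in view. The members and gene lists were chosen with earlier results of these data known.

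Alternatives were other size factors, total count scaling, no filter, the batch as a block, DESeq2 1.42.0, no fold minimum, and leaving out each batch. Leaving out libraries that stood apart was chosen after seeing the data. Replicate numbers name HepaRG batches in the labels. Over 232 same-numbered pairs the deviations from group means had a median correlation of 0.0328, against -0.0148 over 464 pairs of different numbers. Of the chemicals, 5 were on one plate and 3 (scriptaid, tacedinaline and vorinostat) on another, and each comparison lies within a plate. Values of chemicals on unlike plates cannot be told apart from the plate. From C1 to C5 mean total counts fell from 3038905 to 1485592 in vorinostat and from 3646506 to 2325353 in scriptaid. In tacedinaline they fell from 2950850 to 2110830. The lowest C5 mean on the first plate was 3462585, in mocetinostat. Total counts of 1061359 to 5250260 limit the precision of probes with few counts, and reads carry no molecular identifiers. A value of at most 3 counts per library was treated as a floor. Promoter windows and gene positions are from RefSeq (GRCh38.p14), where all 57 symbols matched an entry, 2 of them through a synonym. NDUFA4 was matched in this way to the pseudogene COXFA4P1, not to its own gene. A result on 1 item is not reported here.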

Additional observations from a re-analysis of the deposited data

How the results depend on the processing

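No alternative turned the sign of any of the 51 calls at C5 of members named by rule. Scaling by total counts did turn the sign of the members' median in apicidin (-0.05 to 0.04), mocetinostat (-0.09 to 0.11) and tacedinaline (-0.03 to 0.16). Of the 51 calls, 27 were kept in all 3 fits that left out a batch, and 3 in none (NDUFA7 and UQCRH_28041 in panobinostat, NDUFV1_91708 in apicidin). Probes with few counts, such as those of SDHC and NDUFB2, are limited by depth. Counts of members called changed as follows, and the cause was not tested. The share of all probes called could move as well. At C5 of mocetinostat it went from 30.5% to 13.4% without batch 2 and to 32.1% with total count scaling. In scriptaid it went from 29.8% to 41.2% at C5 without C4 batch 3. Where no share is given here or above, a change in the members' count cannot be set against that of all probes.

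Scaling by total counts gave 4 at C3 in apicidin (2 in the reported fit), 4 at C4 in mocetinostat (7), 4 higher and 3 lower at C5 in mocetinostat (2 and 9), 2 at C3 in tacedinaline (4), 9 higher and 6 lower at C5 in tacedinaline (5 and 10), and 3 at C4 and 4 higher at C5 in valproic acid (1 and 0). With RLE size factors mocetinostat had 2 at C3 (1). Without the filter on low counts there were 5 at C3 in apicidin, 2 at C4 in scriptaid (0), and 2 at C4 and 1 higher at C5 in valproic acid. DESeq2 gave 4 at C3 in apicidin, 2 at C3 in mocetinostat, 3 at C4 in scriptaid, and 4 at C4 and 1 higher at C5 in valproic acid. With no fold minimum there were 5 at C3 and 7 lower at C5 in apicidin (4), 8 higher at C5 in tacedinaline, and 2 at C4 and 2 higher at C5 in valproic acid.

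With the batch as a replicate block there were 4 at C3 in apicidin, and 2 at C4 and 2 higher at C5 in valproic acid. The other 37 counts stayed within 1.5 times under the block, which follows the pairing of batches in the labels. Among the named calls, the block ended 4 of 51, including NDUFA4 in vorinostat (0.71, adjusted p = 0.0547 with edgeR).

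Without the libraries that stood apart (for mocetinostat, C2 batches 1 and 2 and C3 batch 1), an alternative chosen after seeing the data, there were 7 at C3 and 10 at C4 in apicidin (2 and 4), 8 at C3 and 13 at C4 in mocetinostat (1 and 7) with 4 higher and 15 lower at C5, 4 at C3, 4 at C4 and 8 higher at C5 in scriptaid (0, 0 and 4), and 1 higher at C5 in valproic acid. Mocetinostat C2 then held 1 library, assumed to vary like the other groups.

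Leaving out each batch in turn gave these ranges. Apicidin had 1 to 5 at C3, 2 to 8 at C4 and 1 to 3 higher and 3 to 4 lower at C5. Mocetinostat had 0 to 16 at C2, 0 to 1 at C3, 1 to 2 at C4 and 1 to 2 higher and 1 to 5 lower at C5. Panobinostat had 0 to 1 at C4 and 1 to 4 higher at C5. Scriptaid had 0 to 2 at C3, 0 to 4 at C4 and 2 to 8 higher and 1 to 6 lower at C5. Tacedinaline had 1 to 2 at C3, 6 to 9 at C4 and 4 to 6 higher and 7 to 8 lower at C5. Trichostatin A had 0 to 1 lower at C5, and valproic acid 0 to 3 at C4 and 0 to 2 higher at C5. Vorinostat had 0 to 13 at C3, 17 to 19 at C4 and 13 to 18 higher and 5 to 6 lower at C5. Without trichostatin A C1 batch 3 no member was called in that chemical.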
